A study of Mus musculus with 4 samples.

Results

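The genes of cholesterol synthesis, cholesterol transport and oxysterol production were followed in primary mouse astrocytes with and without CRTC3, the CREB-regulated transcription coactivator 3, under vehicle or forskolin (FSK). The 32 genes were listed by name for these pathways, and 28 of them had a probe set assigned to that gene alone, among 22180 genes measured in this way. *Acat2*, *Idi1*, *Nr1h2* and *Soat1* were not analysed here. A gene with several such probe sets was represented by its brightest, judged by the mean of the arrays. Values are log2 signals, so that a difference of 1 is a doubling, and a gene is called at least 1.5-fold higher or lower when its difference passes that fold.

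The study hybridized 4 arrays, with 1 array each for CRTC3 KO astrocytes treated with 25 µM FSK for 2 h, CRTC3 KO astrocytes with vehicle (0.1% DMSO), WT astrocytes with the same FSK treatment, and WT astrocytes with vehicle. FSK activates adenylyl cyclase and so increases cAMP, and the profiles were made to find cAMP-responsive genes that depend on CRTC3. All cultures came from the cortex of pups at postnatal days 1–3 on a C57BL/6J background, were grown as mixed glia in medium with GM-CSF, a growth factor for myeloid cells, and were shaken to remove microglia. CRTC3 was absent from all cells of the KO pups, not from astrocytes alone, and the labels do not say how many pups or cultures stand behind an array. The labels do not say whether the vehicle cells were collected at 0 or at 2 h, so FSK and 2 h of culture cannot be told apart in the FSK responses. The signal of *Crtc3* itself was 5.49 and 4.92 in CRTC3 KO with FSK and vehicle, against 8.14 and 7.75 in WT. With 1 array per condition no difference below has a replicate check, no test was possible and no p-value is given.

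Cholesterol is built from acetyl-CoA through mevalonate and isoprenoid intermediates to squalene, which is cyclized to lanosterol and trimmed to cholesterol. The transcription factors SREBP-1 and SREBP-2 switch on the genes of this route when membrane sterol is low; SCAP escorts them out of the endoplasmic reticulum and the INSIG proteins hold them back. Oxysterols, oxidized forms of cholesterol, activate the LXR receptors, which switch on cholesterol efflux and apolipoprotein E, and they also strengthen the hold of INSIG on SREBP. In the brain, which makes its own cholesterol, astrocytes are a main source and export it on particles that carry apolipoprotein E.

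RefSeq (GRCm38.p6) promoters, from 250 bases before to 50 bases after a gene's start, were found for 22 of the 28 measured genes. *Fdft1*, *Sqle*, *Cyp7b1*, *Fdps*, *Abcg1* and *Stard4* were not matched. The letters searched on both strands were the sterol response element of SREBP (TCACNCCAC), the cAMP response element or CRE, bound by CREB (TGACGTCA), its shortened form (TGACG), the NF-Y box (CCAAT) and the LXR response element. A full CRE also holds the short form on each strand. The promoters of *Ch25h*, *Cyp51*, *Hmgcs1* and *Insig1* are printed 5′ to 3′ because *Ch25h* had the largest FSK response, *Cyp51* had the highest difference of FSK responses of the synthesis enzymes, *Hmgcs1* was the gene with the sterol response element, and *Insig1* had the highest CRTC3 KO minus WT difference of the SREBP regulators with FSK. Capitals mark the sterol response element, the CRE and the short CRE on either strand.
Ch25h (chr19:34475099-34475398, minus strand): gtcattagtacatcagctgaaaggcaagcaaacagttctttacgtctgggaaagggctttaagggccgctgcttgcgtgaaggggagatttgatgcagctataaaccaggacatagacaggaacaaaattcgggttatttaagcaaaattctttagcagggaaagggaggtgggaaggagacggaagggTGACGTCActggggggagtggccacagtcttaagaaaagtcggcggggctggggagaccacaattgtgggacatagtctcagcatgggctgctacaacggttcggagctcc
Cyp51 (chr5:4104648-4104947, minus strand): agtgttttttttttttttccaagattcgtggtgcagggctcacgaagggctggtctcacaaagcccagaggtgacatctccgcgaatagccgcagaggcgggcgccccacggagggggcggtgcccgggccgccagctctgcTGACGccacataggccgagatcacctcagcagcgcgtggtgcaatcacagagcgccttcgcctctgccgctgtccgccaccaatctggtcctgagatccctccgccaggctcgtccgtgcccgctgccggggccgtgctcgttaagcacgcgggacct
Hmgcs1 (chr13:119690101-119690400, plus strand): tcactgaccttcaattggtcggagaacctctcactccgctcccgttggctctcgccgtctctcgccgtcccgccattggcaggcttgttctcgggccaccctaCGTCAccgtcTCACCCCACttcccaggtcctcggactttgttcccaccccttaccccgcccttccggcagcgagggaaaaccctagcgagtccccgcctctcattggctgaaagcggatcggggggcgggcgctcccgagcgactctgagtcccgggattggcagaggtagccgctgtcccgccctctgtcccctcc
Insig1 (chr5:28071162-28071461, plus strand): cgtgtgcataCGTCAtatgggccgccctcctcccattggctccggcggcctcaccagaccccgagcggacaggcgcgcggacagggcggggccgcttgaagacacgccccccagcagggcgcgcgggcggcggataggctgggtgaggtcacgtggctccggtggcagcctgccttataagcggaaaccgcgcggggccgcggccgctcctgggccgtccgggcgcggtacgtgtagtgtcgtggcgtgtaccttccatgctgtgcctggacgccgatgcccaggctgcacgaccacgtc

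In these windows a full CRE was found in 1 of the 22 genes, *Ch25h*, with its first base at position -61 from the gene's start, against 2.03% of the 27025 genes with a promoter. The short CRE was found in 10 of the 22, against 23.0% of genes, and in the printed ones it began at -108 in *Cyp51*, at -147 in *Hmgcs1* and at -240 in *Insig1*. The sterol response element in this spelling was found in 1 of the 22, *Hmgcs1*, at -137, against 1.44% of genes, and it did not overlap the short CRE there. The NF-Y box was found in 17 of the 22, against 41.1% of genes, and it was missing from *Ch25h*. Several genes have more than 1 promoter: counted per promoter, the NF-Y box was in 18 of the 33 promoters of these genes, against 37.4% of 32851, and the short CRE in 10 of the 33, against 20.8%. The LXR response element in this spelling was found in none of the 22, against 0.0148% of genes. It matched only 4 of the 27025 genes, so its absence here says nothing about these genes. These matches describe letters only.

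On the arrays the 28 genes ranged from very bright to dim. The median signal of the gene probe sets was 5.81; all 28 genes reached it on at least 1 array and 25 on all 4, the exceptions being *Ch25h* and *Cyp7b1*, which reached it on 3 arrays, and *Abcg1*, which reached it on 1. The plot of signals by array shows that for most genes the 4 arrays lay close together, with *Ch25h* in CRTC3 KO with FSK as the widest exception.

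**Figure D1:**
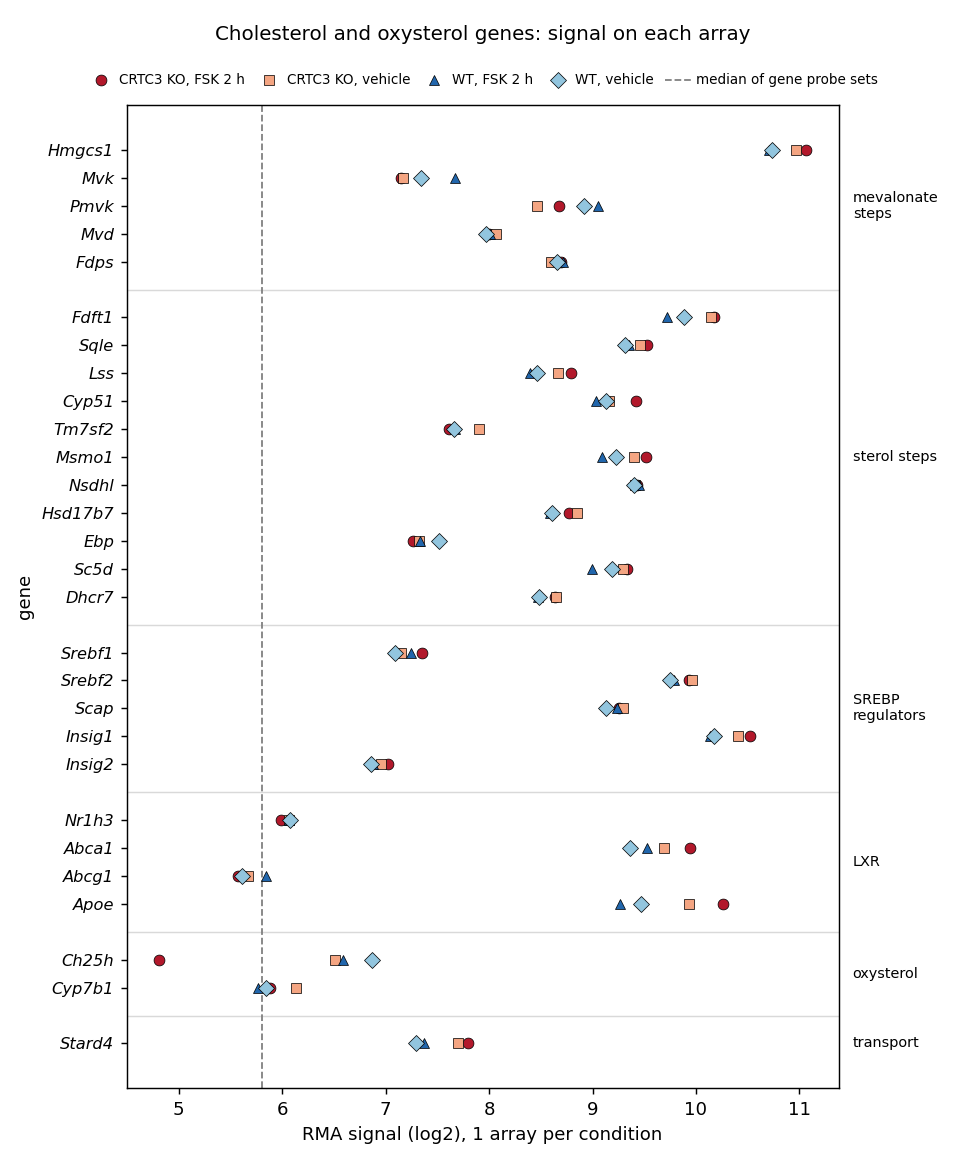
Log2 RMA signal (horizontal axis) of each of the 28 measured genes (vertical axis) on each array, with 1 point per condition and a dashed line at the median of all gene probe sets, 5.81. *Ch25h* lay at 4.81 in CRTC3 KO with FSK, against 6.51 to 6.86 on the other 3 arrays, and *Apoe* was higher on both CRTC3 KO arrays than on both WT arrays.

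The 5 measured mevalonate and isoprenoid genes did not share a direction. *Hmgcs1*, the HMG-CoA synthase at the start of the mevalonate steps, had a signal of 11.06 in CRTC3 KO with FSK and 10.97 with vehicle, against 10.70 in WT with FSK and 10.74 with vehicle. Both CRTC3 KO arrays were above both WT arrays, by 0.36 with FSK and 0.23 with vehicle. *Mvk*, mevalonate kinase, had 7.15 in CRTC3 KO with FSK and 7.17 with vehicle, against 7.67 in WT with FSK and 7.34 with vehicle. Here the CRTC3 KO arrays were the lower ones, and the WT array with FSK stood above the rest. Its CRTC3 KO minus WT difference with FSK, -0.52, was the lowest of the synthesis enzymes, and its FSK response of 0.33 in WT, against -0.02 in CRTC3 KO, was the highest of the 28 genes in WT. *Pmvk*, the kinase of the next step, was also lower in CRTC3 KO, with 8.67 with FSK and 8.47 with vehicle, against 9.06 and 8.92 in WT. *Mvd*, which decarboxylates the product, and *Fdps*, which makes farnesyl diphosphate, differed little: all 4 arrays lay between 7.97 and 8.07 for *Mvd* and between 8.60 and 8.71 for *Fdps*.

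Of the 11 sterol steps, 8 were higher in CRTC3 KO relative to WT with FSK and 10 with vehicle, where 49.8% and 51.7% of all genes were higher, and 54.7% and 55.4% of the genes that reached the median signal, as all members did. *Fdft1*, squalene synthase, the first enzyme committed to sterols, had 10.18 in CRTC3 KO with FSK and 10.15 with vehicle, against 9.72 in WT with FSK and 9.89 with vehicle. Both CRTC3 KO arrays were above both WT arrays, and the differences of 0.46 with FSK and 0.26 with vehicle were the highest of the synthesis enzymes. *Lss*, which cyclizes squalene epoxide to lanosterol, had 8.79 in CRTC3 KO with FSK and 8.66 with vehicle, against 8.39 and 8.47 in WT. *Cyp51*, the lanosterol demethylase, had 9.42 in CRTC3 KO with FSK and 9.16 with vehicle, against 9.04 in WT with FSK and 9.13 with vehicle. For *Cyp51* 1 array stood apart: CRTC3 KO with FSK was 0.39 above WT with FSK, while the vehicle arrays differed by 0.02. *Msmo1*, the methylsterol oxidase that removes methyl groups, had 9.51 in CRTC3 KO with FSK and 9.40 with vehicle, against 9.09 and 9.23 in WT. *Sc5d*, which places a double bond late in the route, had 9.33 in CRTC3 KO with FSK and 9.30 with vehicle, against 8.99 and 9.19 in WT. *Fdft1*, *Lss*, *Msmo1* and *Sc5d* thus shared 1 order: both CRTC3 KO arrays were the highest, and WT with FSK was the lowest.

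The remaining sterol enzymes differed by less than 0.20 between genotypes with FSK. *Sqle*, the squalene epoxidase and a rate-limiting step, was 0.17 higher in CRTC3 KO relative to WT with FSK and 0.15 higher with vehicle. *Hsd17b7*, a sterol ketone reductase, was 0.19 and 0.24 higher, and *Dhcr7*, which makes cholesterol in the last step of 1 branch, was 0.16 and 0.17 higher. *Tm7sf2*, a sterol reductase, had 7.62 in CRTC3 KO with FSK and 7.91 with vehicle, against 7.67 and 7.66 in WT, so that 1 array, CRTC3 KO with vehicle, stood above the other 3. *Nsdhl*, a sterol dehydrogenase, lay between 9.41 and 9.45 on all 4 arrays. *Ebp*, a sterol isomerase, was 0.07 lower in CRTC3 KO relative to WT with FSK and 0.20 lower with vehicle. *Nsdhl* and *Ebp* are on the X chromosome, and *Xist*, the RNA of the inactive X chromosome, differed by -4.67 with FSK and -4.73 with vehicle between CRTC3 KO and WT; its part in their values was not tested.

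The 5 SREBP regulators were all higher in CRTC3 KO relative to WT with both treatments, by 0.02 to 0.39, where 49.8% of all genes with FSK and 51.7% with vehicle were higher; with probe sets averaged per gene, 4 of 5 were higher with FSK. *Insig1*, itself a target of SREBP, had 10.52 in CRTC3 KO with FSK and 10.40 with vehicle, against 10.13 and 10.17 in WT. Its differences of 0.39 with FSK and 0.23 with vehicle were the highest of the group with each treatment. *Srebf2*, which encodes SREBP-2, the main activator of the cholesterol genes, had 9.93 and 9.96 in CRTC3 KO with FSK and vehicle, against 9.79 and 9.75 in WT. *Srebf1*, which encodes SREBP-1, the activator of fatty acid genes, was at 7.35 and 7.15 in CRTC3 KO with FSK and vehicle, against 7.24 and 7.09 in WT; for this gene the FSK arrays were the higher ones, by 0.21 in CRTC3 KO and 0.15 in WT. *Scap* was 0.02 higher in CRTC3 KO with FSK and 0.16 higher with vehicle. *Insig2*, the isoform that is no SREBP target, was 0.15 and 0.10 higher. The group's median difference between genotypes was 0.14 with FSK and 0.16 with vehicle, against 0.17 and 0.13 for the 16 synthesis enzymes, so the medians of both groups lay close together.

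The LXR receptor and the LXR targets differed from each other more than the SREBP regulators did. *Apoe*, the apolipoprotein of astrocyte particles, had 10.26 in CRTC3 KO with FSK and 9.94 with vehicle, against 9.26 in WT with FSK and 9.47 with vehicle. Both CRTC3 KO arrays were above both WT arrays, and CRTC3 KO with FSK was the highest and WT with FSK the lowest array. The CRTC3 KO minus WT difference was 1.00 with FSK, a fold of 2.00 after rounding and the 66th highest of 22180 genes, and 0.46 with vehicle, the 685th highest. *Abca1*, the pump that loads cholesterol on apolipoprotein, had 9.94 in CRTC3 KO with FSK and 9.69 with vehicle, against 9.53 and 9.36 in WT. It was higher in CRTC3 KO, by 0.42 with FSK and 0.33 with vehicle, and higher with FSK, by 0.26 in CRTC3 KO and 0.17 in WT. *Abcg1*, a related pump, had 5.57 in CRTC3 KO with FSK and 5.67 with vehicle, against 5.84 in WT with FSK and 5.61 with vehicle, and only the WT array with FSK reached the median signal. *Nr1h3*, which encodes LXR-alpha, lay between 5.99 and 6.08 on all 4 arrays. Thus *Apoe* and *Abca1* were higher in CRTC3 KO with both treatments, whereas *Abcg1* was 0.27 lower with FSK and 0.06 higher with vehicle.

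*Ch25h*, the cholesterol 25-hydroxylase, which makes 25-hydroxycholesterol, a ligand of LXR and INSIG, gave the largest FSK response of the 28 genes and the largest difference between genotypes with FSK. The gene lies on chromosome 19 (chr19:34473783-34475148, GRCm38.p6, minus strand). Its signal was 4.81 in CRTC3 KO with FSK and 6.51 with vehicle, against 6.59 in WT with FSK and 6.86 with vehicle. The CRTC3 KO array with FSK was the lowest by far and the only 1 below the median signal; the other 3 arrays lay between 6.51 and 6.86. The FSK response was -1.70 in CRTC3 KO and -0.27 in WT. In CRTC3 KO this was the 2nd lowest response of 22180 genes, after *Olfr111*, while in WT it was the 1696th lowest. With FSK the CRTC3 KO minus WT difference was -1.78, the 40th lowest, and with vehicle it was -0.36. The level of 4.81 was not shown to be above background, so the sizes of -1.70 and -1.78 are uncertain. A second probe set for *Ch25h* was below the median signal on all arrays, with 4.84 in CRTC3 KO with FSK and 5.02 with vehicle, against 5.17 in WT with FSK and 5.15 with vehicle. On that probe set CRTC3 KO with FSK was again the lowest array, with an FSK response of -0.18 in CRTC3 KO and 0.01 in WT. With the mean of both probe sets the response of *Ch25h* in CRTC3 KO was -0.94, the 21st lowest, and with signals below the median raised to it the response was -0.70, the 6th lowest.

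*Ch25h* is expressed by macrophages and microglia in many settings, and markers of these cells were bright on all arrays. All 13 measured microglia and macrophage markers reached the median signal, and *Csf1r*, their growth factor receptor, was at 11.13 in CRTC3 KO with FSK and 11.09 with vehicle, against 10.75 and 10.74 in WT. The log2 of their summed signal was 13.57 in CRTC3 KO with FSK and 13.59 with vehicle, against 13.45 and 13.48 in WT. The 13 markers had a median FSK response of -0.03 in CRTC3 KO and -0.02 in WT, with 5 and 6 of 13 higher with FSK. The lowest was *Cx3cr1*, the fractalkine receptor, with -0.58 in CRTC3 KO and -0.40 in WT. In bulk RNA fewer cells of a type and less RNA per cell cannot be told apart. The part of microglia and macrophages in the *Ch25h* values was not tested.

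*Cyp7b1*, the hydroxylase that acts on 25-hydroxycholesterol, had 5.88 in CRTC3 KO with FSK and 6.13 with vehicle, against 5.76 in WT with FSK and 5.85 with vehicle. The CRTC3 KO array with vehicle was the highest, and all 4 values were near the median signal. *Stard4*, a soluble carrier that moves cholesterol between membranes and a target of SREBP-2, had 7.80 in CRTC3 KO with FSK and 7.70 with vehicle, against 7.37 and 7.29 in WT. Both CRTC3 KO arrays of *Stard4* were above both WT arrays, by 0.43 with FSK and 0.41 with vehicle, while its FSK response was 0.10 in CRTC3 KO and 0.07 in WT.

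To see what FSK did to the whole set, the responses were counted by direction and size. In CRTC3 KO 16 of the 28 genes were higher with FSK, against 48.2% of all genes, with a median of 0.03, and in WT 14 of 28 were higher, against 49.6% of all genes, with a median of 0.00. At 1.5-fold, 0 members were higher and 1, *Ch25h*, was lower in CRTC3 KO, where 0.514% of all genes were higher and 0.681% lower. In WT no member reached 1.5-fold in either direction, where 1.23% of all genes were higher and 0.757% lower. The 16 synthesis enzymes had a median response of 0.03 in CRTC3 KO, with 10 higher, and of -0.02 in WT, with 7 higher. These medians were too close to 0 to carry a direction: after quantile normalization they were -0.0007 in CRTC3 KO and 0.01 in WT, with 8 higher in CRTC3 KO and 9 in WT. The middle 95% of all genes spanned -0.42 to 0.38 in CRTC3 KO and -0.42 to 0.47 in WT, and every synthesis enzyme, SREBP regulator and LXR gene lay inside both ranges. *Ch25h* in CRTC3 KO was the 1 member response outside its range. All 13 listed cAMP-responsive genes, such as *Sik1* and *Fos*, were higher with FSK in both genotypes, with medians of 0.30 in CRTC3 KO and 0.33 in WT. This list was chosen with earlier results of these data known, so its count is no independent check of the treatment. The responses of the 13 genes were modest, from 0.05 to 0.55 in CRTC3 KO and from 0.11 to 0.83 in WT. At 1.5-fold, 0 of the 13 were higher in CRTC3 KO and 4 in WT.

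**Figure D2:**
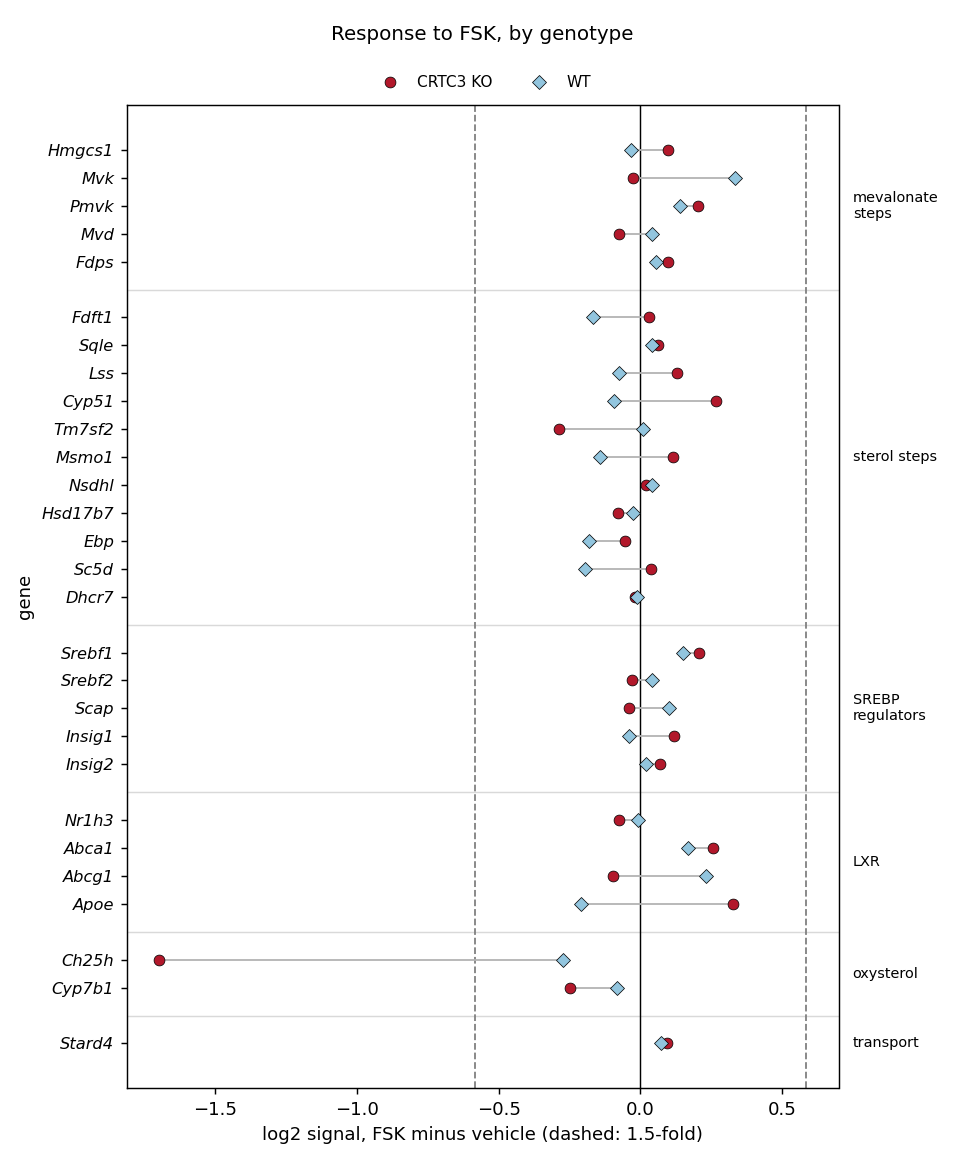
FSK response of each gene (horizontal axis, log2 signal with FSK minus log2 signal with vehicle; vertical axis, genes by group) in CRTC3 KO (circles) and in WT (diamonds), joined by a line, from 1 array per condition. Dashed lines mark 1.5-fold; *Ch25h* in CRTC3 KO, at -1.70, was the only value outside them.

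The 2 genotypes were then compared under each treatment. With FSK 18 of 28 members were higher in CRTC3 KO, against 49.8% of all genes, with a median of 0.15, and with vehicle 22 of 28 were higher, against 51.7% of all genes, with a median of 0.16. Among the 11993 genes that reached the median signal, 54.7% were higher in CRTC3 KO with FSK and 55.4% with vehicle, with medians of 0.03 and 0.02. In all, 18 members were higher and 6 lower in CRTC3 KO under both treatments. The same count was not made over all genes, so these numbers have no background to be read against. At 1.5-fold, *Apoe* was the 1 member higher with FSK, against 2.02% of all genes, and *Ch25h* the 1 member lower, against 3.75%. With vehicle no member passed 1.5-fold, against 1.26% of all genes higher and 2.00% lower.

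The split between members was clearer at the smaller limit of 0.32 on the log2 scale. With FSK 10 of 28 members were higher in CRTC3 KO by at least this much: *Hmgcs1*, *Fdft1*, *Lss*, *Cyp51*, *Msmo1*, *Sc5d*, *Insig1*, *Abca1*, *Apoe* and *Stard4*. This was 35.7% of the members, against 10.6% of all genes and 13.4% of those that reached the median signal. *Mvk*, *Pmvk* and *Ch25h* were lower by at least as much, or 10.7% of the members, against 12.2% of all genes and 11.9% of those that reached the median signal. With vehicle 3 members, *Abca1*, *Apoe* and *Stard4*, were higher by this limit, against 7.99% of all genes and 8.76% of the brighter ones, and 2, *Pmvk* and *Ch25h*, were lower, against 8.07% and 8.28%. No synthesis enzyme was thus among the higher ones with vehicle, and 6 were with FSK, of which *Sc5d* fell below the limit after quantile normalization. This contrast depends on the limit. By direction alone, 12 of the 16 synthesis enzymes were higher in CRTC3 KO with vehicle and 9 with FSK, with medians of 0.13 and 0.17. Of all genes 51.7% and 49.8% were higher, and 55.4% and 54.7% of the brighter ones. With each array centred on its median, 12 of the 16 were higher with vehicle and 12 with FSK.

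**Figure D3:**
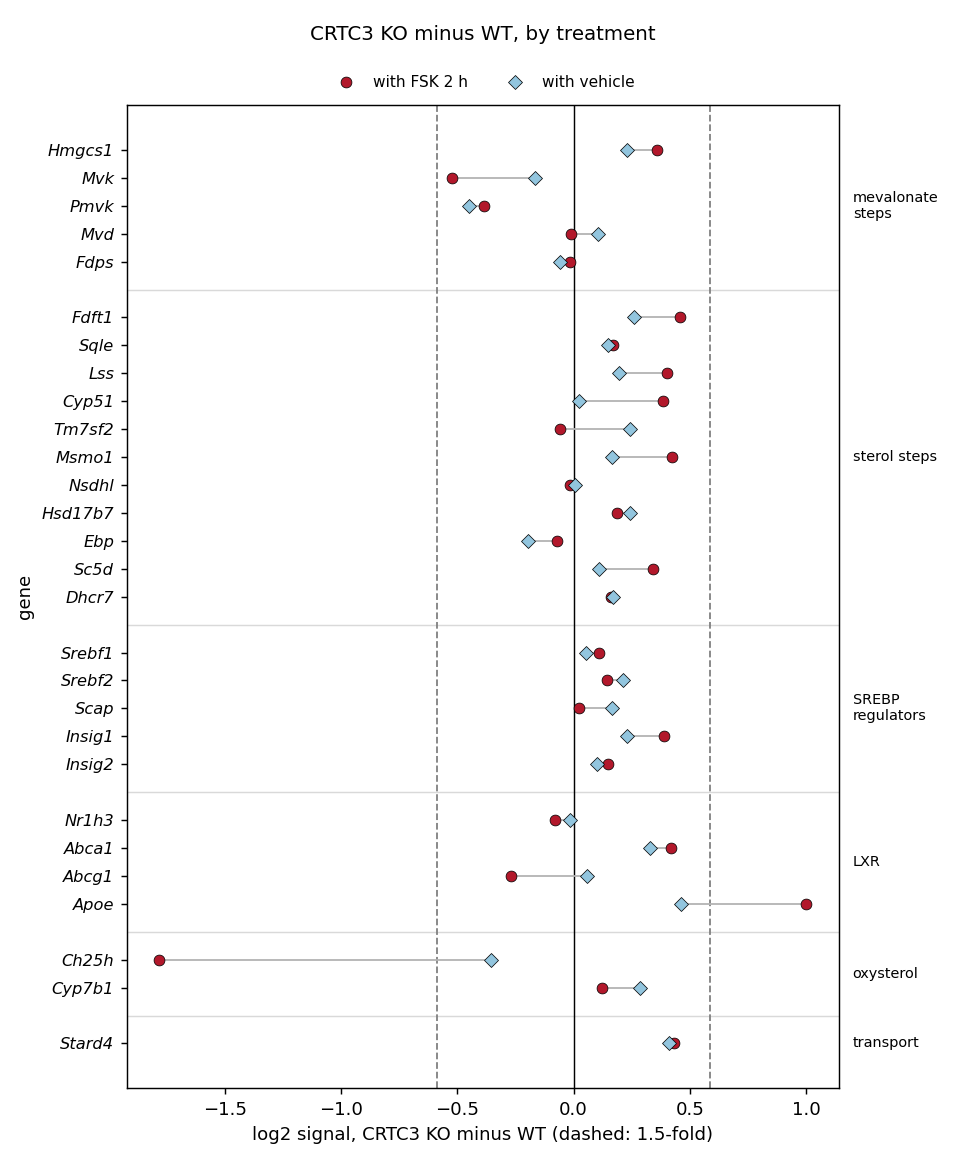
CRTC3 KO minus WT difference of each gene (horizontal axis, log2 signal; vertical axis, genes by group) with FSK (circles) and with vehicle (diamonds), joined by a line, from 1 array per condition. Dashed lines mark 1.5-fold; with FSK *Apoe* lay at 1.00 and *Ch25h* at -1.78, and all other members lay inside the dashed lines under both treatments.

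The response in CRTC3 KO minus the response in WT, which uses all 4 arrays, gave the same 2 genes at its ends. It was -1.43 for *Ch25h*, the 15th lowest of all genes, and 0.54 for *Apoe*, the 611th highest, and 16 of 28 members were above 0, against 48.6% of all genes. At 1.5-fold, 0 members were higher, against 2.07% of all genes, and 1, *Ch25h*, was lower, against 2.92%. Among the synthesis enzymes the highest values were 0.36 for *Cyp51*, 0.26 for *Msmo1* and 0.23 for *Sc5d*, and the lowest were -0.36 for *Mvk* and -0.30 for *Tm7sf2*. Among them, 6 were higher with FSK in CRTC3 KO and lower in WT, 37.5% against 24.5% of all genes. The opposite pattern was found in 3, 18.8% against 26.0% of all genes. After quantile normalization the counts were 3 and 4, or 18.8% and 25%, against 25.5% and 24.7% of all genes. The median was 0.13 over the sterol steps, 0.04 over the mevalonate steps, 0.05 over the SREBP regulators and 0.01 over the LXR genes, against -0.01 over all genes. After quantile normalization the median over the LXR genes was -0.01. Since the FSK responses and the genotype differences are made from the same 4 arrays, they are not separate observations of 1 pattern.

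Of 43 further genes listed for these pathways, 35 were measured, and 28 of them were higher in CRTC3 KO with FSK and 27 with vehicle, against 49.8% and 51.7% of all genes, each with a median of 0.13. At 1.5-fold, 2 were higher and 1 lower in CRTC3 KO with FSK, against 2.02% and 3.75% of all genes, and 2 were higher and 0 lower with vehicle, against 1.26% and 2.00%. *Lcat*, which esterifies cholesterol on lipoproteins, had 8.29 in CRTC3 KO with FSK and 8.37 with vehicle, against 7.34 and 7.46 in WT, differences of 0.95 and 0.90. *Cyp27a1*, the sterol 27-hydroxylase, had 6.24 and 6.28 in CRTC3 KO with FSK and vehicle, against 5.70 and 5.67 in WT, so that both CRTC3 KO arrays were above both WT arrays. *Idi2*, an isopentenyl diphosphate isomerase, had 6.05 and 6.09 in CRTC3 KO with FSK and vehicle, against 5.12 and 5.68 in WT, where WT with FSK was the lowest array. *Cyp27a1* and *Idi2* each reached the median signal of 5.81 on only 2 arrays, so the sizes of their differences are uncertain. *Gpr183*, the receptor for the oxysterol that *Ch25h* and *Cyp7b1* make in sequence, had 6.13 in CRTC3 KO with FSK and 6.70 with vehicle, against 6.77 in WT with FSK and 7.13 with vehicle. Like *Ch25h*, it was lowest in CRTC3 KO with FSK and highest in WT with vehicle, with an FSK response of -0.57 in CRTC3 KO and -0.37 in WT.

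The lists differed in their medians. Their counts by direction stand beside 49.8% of all genes higher in CRTC3 KO with FSK and 51.7% with vehicle. Among genes that reached the median signal the shares were 54.7% and 55.4%. The lists are small, so their counts carry little weight alone. The 7 fatty acid genes driven by SREBP-1 had a median CRTC3 KO minus WT difference of 0.13 with FSK, with 6 higher, and 0.14 with vehicle, with 5 higher; *Fads2*, a fatty acid desaturase, was the highest with FSK, at 0.42. The 6 genes of lipoprotein uptake and lysosomal export had medians of 0.04 and 0.08, with *Npc1*, which exports lysosomal cholesterol, highest at 0.23 and 0.17. The 7 other genes of transport, efflux and esterification had medians of 0.28 and 0.34, with 6 higher under each treatment. The 5 other oxysterol genes, *Cyp27a1* and *Gpr183* among them, had medians of 0.27 and 0.20, with 4 higher under each treatment. In the transport list *Clu*, which encodes the apolipoprotein clusterin, was 0.40 higher with FSK and 0.31 higher with vehicle. Of 3 other LXR targets, all were higher in CRTC3 KO, with *Scd1*, a desaturase, at 0.40 with FSK and 0.14 with vehicle.

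The cultures of the 2 genotypes also differed in cell type markers, as the plot of markers shows. Astrocyte markers were higher in CRTC3 KO, 13 of 14 with FSK and 12 of 14 with vehicle, with medians of 0.49 and 0.43 and a log2 summed signal of 14.05 and 13.99, against 13.57 and 13.54 in WT; *Gfap* and *Aqp4* were bright on every array, whereas *S100b* and *Gjb6* stayed below the median signal. Fibroblast and mural markers were lower, 11 of 12 under each treatment, with medians of -1.07 with FSK and -0.88 with vehicle and a log2 summed signal of 13.49 and 13.64 in CRTC3 KO, against 14.47 and 14.44 in WT. Microglia and macrophage markers were higher by medians of 0.13 with FSK, 12 of 13, and 0.17 with vehicle, 10 of 13. The medians of the sterol steps, 0.19 with FSK and 0.17 with vehicle, lay below those of the astrocyte markers, and the *Apoe* difference of 1.00 with FSK lay above the highest astrocyte marker, *Aqp4*, at 0.85. With vehicle *Apoe*, at 0.46, lay near the astrocyte median and below 6 of the markers, among them *Slc1a2* at 0.87. The oligodendrocyte, neuron, endothelial and ependymal lists had medians between -0.20 and 0.18 with FSK and between -0.07 and 0.10 with vehicle. Within a genotype the astrocyte markers moved little with FSK, by medians of 0.06 in CRTC3 KO and 0.00 in WT. Sex-linked genes differed too. *Xist* was at 4.49 and 4.66 in CRTC3 KO with FSK and vehicle, against 9.17 and 9.39 in WT. *Kdm5d*, *Uty* and *Eif2s3y*, on the Y chromosome, were higher in CRTC3 KO under both treatments, by 0.30 to 0.63. The mix of sexes in the cultures thus differed with genotype. What part the cell mix or the sex of the pups had in any genotype difference was not tested. With 1 array per condition, genotype, sex and culture cannot be told apart.

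**Figure D4:**
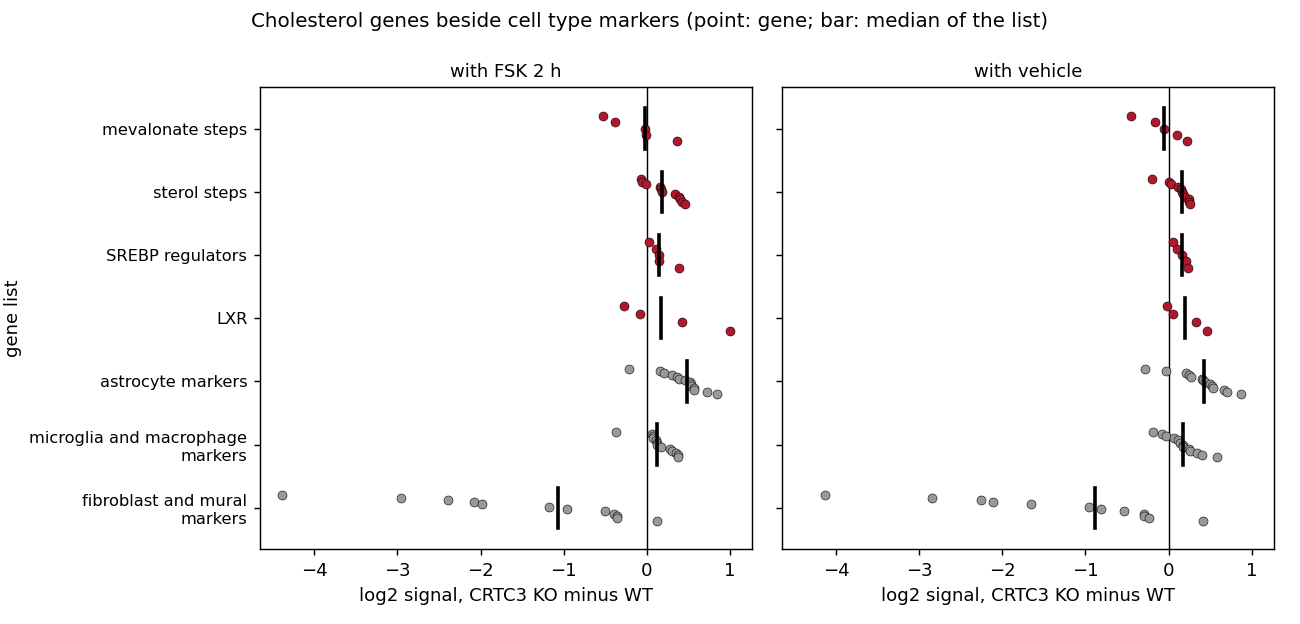
CRTC3 KO minus WT difference in log2 signal (horizontal axis) of each gene (points) in 4 groups of cholesterol genes and 3 lists of cell type markers (vertical axis), with FSK (left) and with vehicle (right), and the median of each list as a bar. The fibroblast and mural markers lay lowest, with medians of -1.07 and -0.88, and the astrocyte markers highest, with 0.49 and 0.43.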

How the data were processed

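Total RNA from primary astrocytes was profiled on Affymetrix GeneChip mouse 2.0 ST arrays, 1 per condition, with conditions taken from the labels. The authors summarized and normalized the scans by RMA in Affymetrix Expression Console and deposited gene-level log2 values, between 1.42 and 13.1, which were used as deposited. For Expression Console the version, and for the arrays the annotation build and any probe filter, were not given in the sources used here. Differences between dim signals are compressed by RMA, and the number of arrays limits the precision.

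Of 41345 probe sets, 23521 named 1 gene, giving 22180 genes, of which 1082 had several probe sets, the brightest of which was used. Differences of log2 values were computed with Python 3.11.15, numpy 2.4.6 and pandas 2.3.3 and plotted with matplotlib 3.10.9; the computation was tested on simulated data. As in the study's methods, arrays were compared by fold-change. The methods refer to tests in R but name none that was used on the arrays; no test was made here. All 28 measured members and, of the other pathway lists, the genes past 1.5-fold in a comparison of 2 arrays were named; further genes were named as examples after their values were seen. The members and lists were chosen with earlier results of these data known. The alternatives were quantile normalization, centring of each array on its median, raising signals under the median, leaving out dim genes, averaging the probe sets of a gene, and thresholds of 0.32 on the log2 scale and of 2-fold. A median or value shifting by over 0.1 counted as moved. The percentages of all genes past 0.32 were added after the data were seen. Genes listed but not measured by a single-gene probe set were left out.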

Additional observations from a re-analysis of the deposited data

Results flagged for a closer look

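*Apoe* and *Msmo1* moved in opposite directions with FSK in the 2 genotypes, by at least 0.1 in each as deposited. *Apoe*, which encodes apolipoprotein E, was 0.33 higher with FSK in CRTC3 KO and differed by -0.21 with FSK in WT, and the response in CRTC3 KO minus that in WT was 0.536. *Msmo1*, the methylsterol oxidase, was 0.12 higher with FSK in CRTC3 KO and differed by -0.14 in WT, a difference of responses of 0.258. After quantile normalization the response of *Msmo1* in CRTC3 KO was 0.06, under 0.1, and the difference was 0.19. Each response rests on 1 array per condition, and neither difference was tested.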

How the results depend on the processing

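No value of at least 0.1 in size changed sign under an alternative, but smaller ones did: 6 of 150 medians, each under 0.04 in size as reported, and 12 of 700 values of single members. After quantile normalization the median FSK response was -0.0007 over the members and -0.02 over the sterol steps in CRTC3 KO, and 0.01 over the synthesis enzymes in WT; with arrays centred on their medians, the mevalonate steps had a CRTC3 KO minus WT median of 0.00 with FSK. Centring also put 21 of 28 members above 0 in CRTC3 KO relative to WT with FSK, against 18 as reported. Over all genes it put 11718 of 22180 above 0, against 11055 as deposited. Of the 16 synthesis enzymes 12 were above 0 after centring, against 9 as reported. All 150 medians over groups of members recomputed under another setting stayed within 0.07 of the reported value, as did 688 of 700 values of single members within 0.1. The 12 that moved belonged to *Ch25h*, *Abcg1* and *Hmgcs1*. With signals below the median raised to it, *Ch25h* had a response of -0.70 in CRTC3 KO, a CRTC3 KO minus WT difference of -0.78 with FSK and a difference of responses of -0.43, so that 0 members were at least 1.5-fold lower in that last quantity. With the mean of its probe sets the values were -0.94, -1.06 and -0.81. For *Abcg1* the FSK response in WT was 0.04 with low signals raised, and the difference of responses of *Hmgcs1* was 0.03 after quantile normalization.

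Of 70 counts of members past a fold, 60 stayed within 1.5 times the reported count. At a limit of 0.32 on the log2 scale, 1 member was higher with FSK in CRTC3 KO and 1, *Ch25h*, lower, and 1 was higher in WT. The difference of responses was higher for 2 and lower for 3. For these 2 quantities the limit was not counted over all genes, so the counts have no background to be read against. In CRTC3 KO relative to WT with vehicle, 3 were higher and 2 lower, against 7.99% and 8.07% of all genes. With FSK 10 were higher and 3 lower, against 10.6% and 12.2% of all genes. At 2-fold, 0 members were higher in CRTC3 KO relative to WT with FSK, since *Apoe* lay just under that limit. No paired analysis was possible because each condition has 1 array. The low signal of *Ch25h*, *Cyp7b1* and *Abcg1*, and of *Cyp27a1* and *Idi2* among the further genes, limits the precision of their differences.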
